A study of Mus musculus with 6 samples.

Results

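The genes described here build and feed the DNA replication machinery. They are 52 genes listed by name, from the origin recognition complex through the MCM helicase, the polymerases and the clamp to the enzymes that supply deoxynucleotides. Every probe set that the array annotation assigns to 1 of these genes alone was kept, which gave 114 probe sets for 51 genes, out of 45033 probe sets and 18192 named genes on the array. Chaf1a is not described, since no probe set in the annotation used here names it alone. Of the 114 probe sets, 86 had a mean of at least 16 units over the 6 arrays and 28 were dimmer, and 50 of the 51 genes had at least 1 of the brighter kind. The exception was Orc1.

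Expression was measured with Affymetrix mouse arrays in C2C12 cells, a mouse myoblast line that withdraws from the cell cycle and fuses into myotubes when serum is lowered. The control group holds 3 arrays of cells that received a control short hairpin RNA (shRNA) targeting GFP, and the knockdown group 3 arrays of cells given an shRNA to PRDM2, a PR domain histone methyltransferase. All cells were kept for 28 hours in Dulbecco's modified Eagle medium with 2% horse serum, and the labels number the biological replicates 1 to 3 in each group. The sources used here do not give whether the shRNA cells were a pool or a clone. The comparison asks how expression in differentiating myoblasts differs when PRDM2 is targeted.

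Values are given as log2(intensity + 16) after quantile normalization, and a fold change is the knockdown mean minus the control mean on that scale, which understates the change of dim genes. The number of arrays limits the precision. Standard errors (SE) and intervals are of fits that do not pair the arrays by replicate number. Prdm2 itself, read by its brightest probe set, stood at 6.19, 6.42 and 5.94 on the control arrays and at 6.67, 6.32 and 6.02 on the knockdown arrays, in the order of the replicate numbers, which every list of array values below follows. The target's mRNA was thus not lower on the arrays labelled knockdown (log2 fold change 0.15, SE 0.19), and each direction below rests on the labels. The array labelled control replicate 2 stood apart from its group. The distance between arrays was taken as the median absolute deviation of their log2 difference over the 11259 brightest probe sets. To knockdown replicate 2 it was 0.05, the smallest of 15 pairs, while to the control arrays numbered 1 and 3 it was 0.26 and 0.25. Whether the RNA or the label of either array numbered 2 was mixed up or shared cannot be told from these values and was not tested, and each fold change depends on it. Genes described in full are therefore also given without control replicate 2, and then without both arrays numbered 2. The first of these keeps knockdown replicate 2, the array with the lowest mean over the replication genes, while its control partner is left out. It therefore places genes that are lower on knockdown replicate 2 than on the other knockdown arrays further to the lower side than the second does. Myoblast identity was present, with Myod1 between 9.46 and 9.86 and Des between 10.38 and 10.90 over the 6 arrays. All 6 endothelial and all 7 adipocyte marker probe sets read under 16 units, as did 5 of 8 for macrophages, Ptprc and Cd68 among them, while Adgre1 and Csf1r read 27.4 and 86.9 units.

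Replication starts when the origin recognition complex, Cdc6 and Cdt1 load the MCM helicase onto DNA in G1. Cdc7 with Dbf4, and then Cdc45 and the GINS complex, turn the loaded helicase on in S phase, after which polymerases, clamp and single-strand binding proteins copy both strands. Many of these genes are targets of E2F transcription factors, which pocket proteins of the retinoblastoma family hold in check as myoblasts leave the cycle. In bulk RNA, fewer cells in S phase and less mRNA per cell cannot be told apart.

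The promoters show what many of these genes share in sequence, which the choice of members did not use. RefSeq promoters of 300 bases, from 250 before the start to 50 after it on assembly GRCm38.p6, were matched for 43 of the 51 genes, with 52 starts in all. The E2F letters searched were TTTCCCGC, TTTCGCGC, TTTGCCGC and TTTGGCGC on either strand. They were found in 15 of 52 member promoters (28.8%), against 744 of 32851 promoters in the whole table (2.26%). Among promoters of genes with a probe set, as all members have, they were in 581 of 18108 (3.21%). The letters CCAAT, also on either strand, were in 25 of 52 member promoters (48.1%) and 37.4% of all. The CHR letters TTTGAA or TTCGAA, typical of genes expressed in G2 and mitosis, were in 9 of 52 (17.3%) and 19.2% of all. Among promoters of genes with a probe set the CCAAT letters were in 37.4% and the CHR letters in 15.1%. A match describes the letters and not a bound site.

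The sequences below are the 170 bases before the start for the 9 member genes with at least 1 match to the E2F letters wholly before it, and for Tk1, the member with the highest fold change, in which none of these letters was found in the window. They run 5′ to 3′ on the gene's strand, and capitals mark the E2F letters or their reverse complement. In Mcm6 and Mcm5 matches on opposite strands overlap and form a 12-base run in capitals. Mcm7, shown for 1 of its 2 listed starts, and Rfc3 each have a further match at or after the start, outside the printed bases.
Mcm6: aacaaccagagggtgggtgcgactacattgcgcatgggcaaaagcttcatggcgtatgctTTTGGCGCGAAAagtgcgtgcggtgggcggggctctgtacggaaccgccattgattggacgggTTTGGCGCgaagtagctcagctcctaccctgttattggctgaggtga
Orc3: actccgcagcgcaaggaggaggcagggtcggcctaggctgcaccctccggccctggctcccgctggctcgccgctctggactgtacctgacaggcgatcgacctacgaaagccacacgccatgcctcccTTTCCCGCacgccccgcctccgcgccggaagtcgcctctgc
Orc1: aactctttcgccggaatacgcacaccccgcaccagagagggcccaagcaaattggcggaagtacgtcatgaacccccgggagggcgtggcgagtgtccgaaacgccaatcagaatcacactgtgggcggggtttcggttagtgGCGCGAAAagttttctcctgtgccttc
Mcm7: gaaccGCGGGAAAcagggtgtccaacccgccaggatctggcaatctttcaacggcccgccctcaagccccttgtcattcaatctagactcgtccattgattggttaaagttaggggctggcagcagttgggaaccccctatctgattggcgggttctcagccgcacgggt
Rfc3: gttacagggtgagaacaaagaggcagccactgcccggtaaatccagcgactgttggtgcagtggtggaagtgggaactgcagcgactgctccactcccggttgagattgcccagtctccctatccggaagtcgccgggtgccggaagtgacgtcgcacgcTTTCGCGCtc
Mcm5: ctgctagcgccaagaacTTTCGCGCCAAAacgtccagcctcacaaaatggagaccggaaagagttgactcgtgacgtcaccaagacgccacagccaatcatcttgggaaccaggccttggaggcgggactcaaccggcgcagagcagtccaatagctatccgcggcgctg
Topbp1: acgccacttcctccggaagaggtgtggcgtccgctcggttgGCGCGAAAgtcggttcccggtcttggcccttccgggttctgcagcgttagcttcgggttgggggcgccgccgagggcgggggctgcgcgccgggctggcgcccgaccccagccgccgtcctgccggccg
Cdc6: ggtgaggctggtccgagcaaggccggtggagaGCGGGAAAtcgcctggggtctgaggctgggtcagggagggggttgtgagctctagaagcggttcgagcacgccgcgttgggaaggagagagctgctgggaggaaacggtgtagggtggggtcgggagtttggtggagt
Tk1: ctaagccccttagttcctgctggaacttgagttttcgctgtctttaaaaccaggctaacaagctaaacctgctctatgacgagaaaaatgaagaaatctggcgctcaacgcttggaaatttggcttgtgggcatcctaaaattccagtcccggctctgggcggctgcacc
Pola1: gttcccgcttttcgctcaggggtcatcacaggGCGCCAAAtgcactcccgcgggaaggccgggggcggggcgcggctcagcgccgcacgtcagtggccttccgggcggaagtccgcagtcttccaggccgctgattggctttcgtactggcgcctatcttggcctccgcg
The Mcm6 window lies at chr1:128359706-128359875 (minus strand), Orc3 at chr4:34614943-34615112 (minus strand), Orc1 at chr4:108579284-108579453 (plus strand) and Mcm7 at chr5:138171884-138172053 (minus strand). The Rfc3 window lies at chr5:151651209-151651378 (minus strand), Mcm5 at chr8:75109339-75109508 (plus strand) and Topbp1 at chr9:103305157-103305326 (plus strand). The Cdc6 window lies at chr11:98907981-98908150 (plus strand), Tk1 at chr11:117826015-117826184 (minus strand) and Pola1 at chrX:93632156-93632325 (minus strand).

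As a group, replication genes read slightly lower on the knockdown arrays, but no probe set passed the test and the shift followed single arrays. Of the 114 probe sets, 88 (77.2%) had a lower mean in the knockdown group, against 50.0% of all 45033 probe sets. The median log2 fold change was -0.09 (-0.14 for the brightest probe set of each gene). Over all probe sets that median was -2.5e-05. Tested with limma over all 45033 probe sets, 0 members and 0% of all probe sets passed an adjusted p of 0.05 in either direction, and the smallest adjusted p of a member was 1.00. At an unadjusted p under 0.05 there were 2 members lower (1.75%) and 2 higher, against 817 (1.81%) and 508 (1.13%) of all probe sets.

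The arrays themselves differed more than the groups. The mean over the 114 probe sets was 6.43, 5.99 and 6.26 on the control arrays and 6.24, 5.97 and 6.16 on the knockdown arrays. Control replicate 1 was the highest array and both arrays numbered 2 were the lowest, so the groups overlap. Control replicate 1 was the highest of the 6 arrays for 70 members (61.4%, against 21.0% of all probe sets). For 79 members (69.3%, against 33.2%) the lowest array was 1 of the 2 numbered 2. The range among the 3 control arrays exceeded the difference between the group means in 106 of 114 members (93.0%). Over all probe sets the share was 88.6%, so this held for most of the array and is no trait of the members.

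Leaving out 1 array at a time moved the shift accordingly. Without control replicate 1 the median was -0.0062 and 60 members were on the lower side, and without knockdown replicate 2 they were -0.03 and 72. Without control replicate 2, which leaves its low knockdown partner in, the median was -0.22 with 93 members lower, and without knockdown replicate 1 it was -0.15 with 94. In the fit without control replicate 2, 118 probe sets of the array passed lower (0.262%) and 119 higher (0.264%), and 0 of the members, whose smallest adjusted p was 0.13 (limma). In that fit 38 members (33.3%) were lower at an unadjusted p under 0.05 and 1 was higher, against 5.16% and 5.09% of all probe sets. With both arrays numbered 2 left out, 88 members were lower (median -0.14) and 0 passed, against 0.0711% of all probe sets lower and 0.0555% higher. Adding the replicate block to that fit raised those shares to 0.695% and 0.906%, with 0 members, of which a probe set of Rfc3 had the smallest adjusted p (0.074, limma). Shares this small leave few calls to look for among 114 probe sets, so 0 members called is no result about them.

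**Figure D1:**
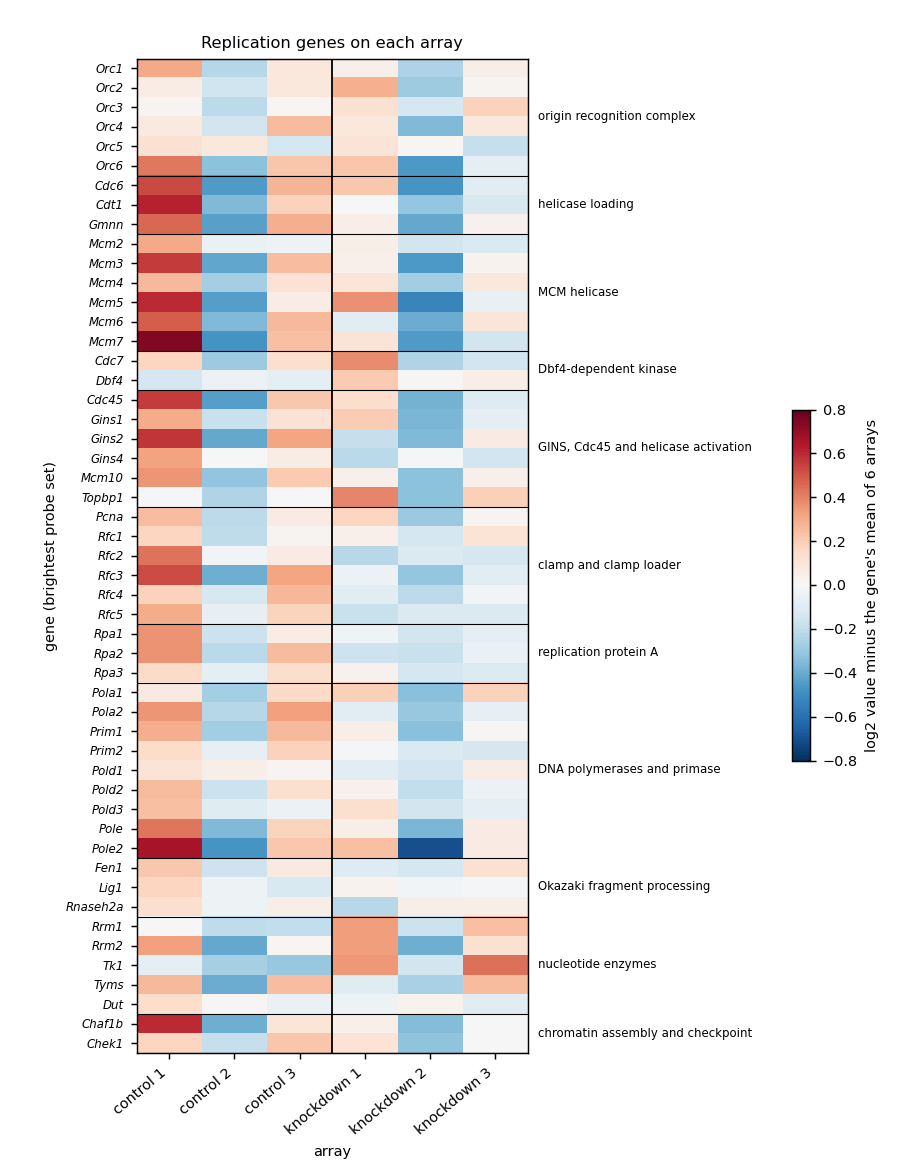
Log2 value of each of the 51 genes on each array minus the gene's mean over the 6 arrays, for its brightest probe set, grouped by role. Red is above and blue below the gene's mean. Control replicate 1 is red for most genes and both arrays numbered 2 are mostly blue, while Rrm1, Tk1 and Topbp1 are red on knockdown replicates 1 and 3.

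Within each replicate number the knockdown array was compared with the control array of the same number. Among arrays numbered 1 the median difference over the members was -0.17, with 87 of 114 lower. Among arrays numbered 2 it was -0.01, with 63 lower, and among arrays numbered 3 it was -0.10, with 78 lower. Over all probe sets 51.0%, 50.6% and 50.1% were lower within numbers 1, 2 and 3. Members lower within all 3 numbers were 44 (38.6%), against 15.2% of all probe sets, and 11 were higher within all 3, against 14.0%. With the replicate number as a block, 21 members (18.4%) were lower and 3 higher at an unadjusted p under 0.05, against 4.05% and 3.78% of all probe sets. The smallest adjusted p of a member in that fit was 0.63, and 0 passed.

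**Figure D2:**
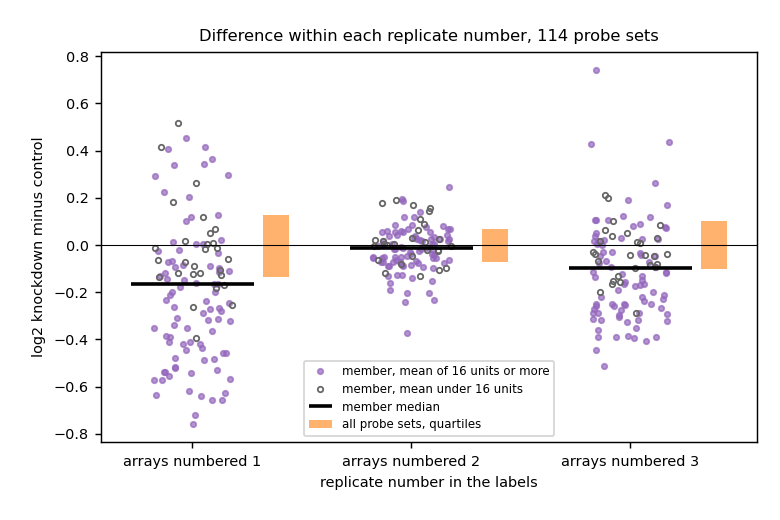
Difference on the log2 scale between the knockdown and the control array of each replicate number, 1 point per member probe set. Filled points have a mean of at least 16 units, black bars are member medians (-0.17, -0.01 and -0.10) and orange bars span the quartiles of all probe sets.

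Subunits of the origin recognition complex, which marks where replication can start, showed no common direction. Of its 14 probe sets 6 were lower, with a median of 0.02, and the brightest probe sets of its 6 genes lay between -0.21 and 0.11. Orc6, the subunit that helps recruit Cdt1 and the helicase, read 6.88, 6.13 and 6.68 on the control arrays and 6.68, 6.0 and 6.39 on the knockdown arrays. Its log2 fold change of -0.21 (SE 0.24, and -0.42 without control replicate 2 and -0.25 without both) came with the lowest values on both arrays numbered 2. Orc3, a core subunit, read 6.85, 6.62 and 6.85 on the control arrays and 6.95, 6.69 and 7.02 on the knockdown arrays. It stood at 0.11 (SE 0.12) and at 0.04 without control replicate 2 and 0.14 without both, and its groups overlapped. The further probe sets of Orc3 stood at -0.01 and, for a dim one, -0.05.

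The factors that load the helicase were lower in 4 of 5 probe sets, with a median of -0.23 (-0.51 without control replicate 2 and -0.33 without both arrays numbered 2). Cdt1, the loading factor that geminin inhibits, read 8.15, 7.18 and 7.72 on the control arrays and 7.53, 7.23 and 7.41 on the knockdown arrays. Its 3 knockdown values fall between the lowest and the highest control value, and the log2 fold change was -0.30 (SE 0.24; -0.55 without control replicate 2 and -0.47 without both). Cdc6, the ATPase that works with the origin complex, read 6.47, 5.49 and 6.22 on the control arrays and 6.17, 5.48 and 5.86 on the knockdown arrays, a fold change of -0.23 (SE 0.28; -0.51 without control replicate 2 and -0.33 without both). Both arrays numbered 2 read almost the same for Cdc6, and the other arrays lay above them. Gmnn, which encodes geminin, stood at -0.21.

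The MCM helicase, the ring that unwinds DNA at the fork, was lower in nearly all of its probe sets. Of its 19 probe sets 18 were lower, 11 of them within all 3 replicate numbers, and the median was -0.26 (-0.41 without control replicate 2 and -0.37 without both arrays numbered 2). Its mean by array was 7.56, 6.78 and 7.26 on the control arrays and 7.17, 6.77 and 7.06 on the knockdown arrays. Mcm7 read 9.64, 8.42 and 9.14 on the control arrays and 9.0, 8.44 and 8.75 on the knockdown arrays, a log2 fold change of -0.33 (SE 0.31; -0.66 without control replicate 2 and -0.51 without both). Its control arrays alone spanned 1.22. The other 3 probe sets of Mcm7 stood at -0.33, -0.32 and -0.35. Mcm2 read 8.04, 7.68 and 7.69 on the control arrays and 7.77, 7.58 and 7.61 on the knockdown arrays. It stood at -0.14 (SE 0.12) and at -0.21 without control replicate 2 and -0.17 without both, with control replicate 1 above the other 5 arrays. Mcm3, Mcm4, Mcm5 and Mcm6 lay between -0.26 and -0.07 by their brightest probe sets.

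Dbf4, the activating subunit of the kinase that phosphorylates the loaded helicase, was on the higher side by its brightest probe set. It read 7.32, 7.41 and 7.38 on the control arrays and 7.66, 7.46 and 7.50 on the knockdown arrays, so its groups did not overlap. Its fold change came to 0.17 (SE 0.08, 95% interval -0.02 to 0.37), and it was 0.19 without control replicate 2 and 0.23 without both. The second probe set of Dbf4, which was dim, stood at -0.03, with overlapping groups. Cdc7, the catalytic subunit, stood at -0.0096. Over all members 6 probe sets had every knockdown array below every control array (5.26%, against 4.06% of all probe sets). In 3 probe sets every knockdown array was above (2.63%, against 3.18%). Both shares are close to those of the whole array.

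Cdc45, 3 GINS subunits, Mcm10 and Topbp1 complete and switch on the helicase, and 10 of their 12 probe sets were lower, with a median of -0.14. Gins2 read 6.27, 5.28 and 6.01 on the control arrays and 5.51, 5.34 and 5.76 on the knockdown arrays. Its fold change was -0.32 (SE 0.25; -0.60 without control replicate 2 and -0.50 without both), and control replicate 2 was the lowest of the 6 arrays. Gins4, another GINS subunit, read 7.43, 7.11 and 7.17 on the control arrays and 6.89, 7.09 and 6.96 on the knockdown arrays. Here the groups did not overlap, at -0.25 (SE 0.11, 95% interval -0.51 to 0.0035; -0.32 without control replicate 2 and -0.37 without both). Topbp1, a scaffold that helps activate the helicase and the checkpoint kinase ATR, was picked out after its values were seen. It read 7.22, 6.99 and 7.23 on the control arrays and 7.62, 6.91 and 7.42 on the knockdown arrays, a fold change of 0.17 (SE 0.19; 0.09 without control replicate 2 and 0.30 without both), on the other side from most of its group. Its second probe set, which was dim, stood at -0.12. Cdc45, Gins1 and Mcm10 lay between -0.23 and -0.16.

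The sliding clamp and the loader that places it were lower in 11 of 12 probe sets, with a median of -0.21 (-0.35 without control replicate 2 and -0.30 without both arrays numbered 2). Rfc2 and Rfc5, subunits of the loader, were the 2 members lower at an unadjusted p under 0.05. Their share of the member probe sets, 1.75%, is close to the 1.81% of all probe sets. Rfc2 read 7.16, 6.71 and 6.80 on the control arrays and 6.51, 6.62 and 6.60 on the knockdown arrays, a fold change of -0.31 (SE 0.13, 95% interval -0.62 to -0.0099; -0.40 without control replicate 2 and -0.43 without both). Rfc5 read 7.34, 6.98 and 7.22 on the control arrays and 6.87, 6.93 and 6.93 on the knockdown arrays, at -0.27 (SE 0.10, 95% interval -0.52 to -0.02; -0.37 without control replicate 2 and -0.38 without both). In these 2 probe sets the knockdown arrays lay close together, just below control replicate 2, and control replicate 1 was the highest. Without control replicate 1 their fold changes were -0.18 and -0.19. The further probe sets of Rfc2 stood at -0.15 (SE 0.24) and -0.28 (SE 0.15), with overlapping groups. In the first of these control replicate 2 (5.49) was the lowest of the 6 arrays. Rfc3 stood at -0.30 (-0.57 without control replicate 2 and -0.49 without both), Rfc4 at -0.21 and Rfc1, the large subunit, at 0.0073. The further probe sets of Rfc1 stood at -0.09 and -0.03. Pcna, the clamp itself, read 9.95, 9.49 and 9.77 on the control arrays and 9.88, 9.40 and 9.73 on the knockdown arrays. It stood at -0.07 (SE 0.16) and at -0.19 without control replicate 2 and -0.06 without both, and its sign turned without control replicate 1 (0.04) or without knockdown replicate 2 (0.067).

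Replication protein A coats single-stranded DNA, and all 5 of its probe sets were lower, with a median of -0.15. Rpa2 read 6.89, 6.31 and 6.79 on the control arrays and 6.37, 6.35 and 6.48 on the knockdown arrays. Control replicates 1 and 3 were high and the other 4 arrays close together. The fold change was -0.27 (SE 0.15), and -0.42 without both arrays numbered 2. Without control replicate 2 alone it was -0.44 (SE 0.09), with an adjusted p of 0.13 (limma), the smallest of any member in that fit. Rpa1 and Rpa3, the large and small subunits, stood at -0.17 and -0.14.

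Polymerase and primase genes were lower in 16 of 19 probe sets, 12 of them within all 3 replicate numbers, with a median of -0.11. Pola2, the regulatory subunit of polymerase alpha, read 6.40, 5.81 and 6.37 on the control arrays and 5.96, 5.74 and 5.98 on the knockdown arrays. Its fold change was -0.30 (SE 0.17; -0.49 without control replicate 2 and -0.42 without both), and control replicate 2 lay among the knockdown arrays. Prim2, the large primase subunit, read 6.42, 6.21 and 6.46 on the control arrays and 6.25, 6.16 and 6.14 on the knockdown arrays. It stood at -0.18 (SE 0.09) and at -0.25 without control replicate 2 and -0.24 without both, with control replicate 2 below knockdown replicate 1. Over all 9 polymerase and primase genes the brightest probe sets lay between -0.30 and 0.03.

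Genes that process Okazaki fragments were lower in 4 of 4 probe sets, by little (median -0.08). Rnaseh2a, the catalytic subunit of RNase H2, read 6.70, 6.54 and 6.62 on the control arrays and 6.35, 6.62 and 6.62 on the knockdown arrays, at -0.09 (SE 0.10; -0.13 without control replicate 2 and -0.18 without both). Knockdown replicate 1 was the lowest of the 6 arrays, and without it the fold change was 0.0016. Fen1 and Lig1, the flap nuclease and the ligase, stood at -0.08 and -0.0053.

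Of the 13 probe sets of nucleotide enzymes 8 were lower, with a median of -0.0068 (-0.12 without control replicate 2 and -0.03 without both arrays numbered 2). Tk1, the thymidine kinase of the salvage pathway, had the highest fold change of all members. It read 7.34, 7.14 and 7.11 on the control arrays and 7.75, 7.26 and 7.85 on the knockdown arrays, with knockdown replicate 2 inside the control range. The fold change was 0.43 (SE 0.16, 95% interval 0.03 to 0.82; 0.40 without control replicate 2 and 0.58 without both), and the differences within numbers 1, 2 and 3 were 0.42, 0.12 and 0.74. Rrm1, the large subunit of ribonucleotide reductase, was also picked out after its values were seen. It read 8.64, 8.43 and 8.44 on the control arrays and 8.97, 8.47 and 8.87 on the knockdown arrays. Its fold change was 0.27 (SE 0.15; 0.23 without control replicate 2 and 0.39 without both), and a second bright probe set gave 0.29 (SE 0.10) with no overlap between the groups. Rrm2, the small subunit, read 9.89, 9.15 and 9.58 on the control arrays and 9.90, 9.17 and 9.68 on the knockdown arrays. It stood at 0.04 (SE 0.24), with nearly equal values for arrays of the same number, and at -0.15 without control replicate 2 and 0.06 without both. Without knockdown replicate 1 or 3 it was below 0, at -0.11 and -0.0079, but within numbers 1, 2 and 3 the knockdown array was higher by 0.0031, 0.017 and 0.11. These values are of the brightest of 3 Rrm2 probe sets, all of at least 16 units. It was the only 1 on the higher side, and the other 2 were lower. For Tk1 and Rrm1 the highest readings were on knockdown replicates 1 and 3, whereas for the MCM genes as a group they were on control replicates 1 and 3. Tyms and Dut, which make and protect the thymidylate supply, stood at -0.07 and -0.06.

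Chaf1b, a subunit of the factor that deposits histones behind the fork, read 6.51, 5.53 and 6.02 on the control arrays and 5.96, 5.57 and 5.92 on the knockdown arrays. Its fold change was -0.20 (SE 0.25; -0.45 without control replicate 2 and -0.32 without both), and without control replicate 1 it turned to 0.046. Chek1, the checkpoint kinase that answers stalled forks, read 5.61, 5.25 and 5.66 on the control arrays and 5.55, 5.12 and 5.44 on the knockdown arrays, at -0.14 (SE 0.15; -0.27 without control replicate 2 and -0.14 without both). The other 4 probe sets of Chek1 were on the higher side, between 0.01 and 0.08, and 3 of them were dim. Averaged over its probe sets Chek1 stood at 0.0072.

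**Figure D3:**
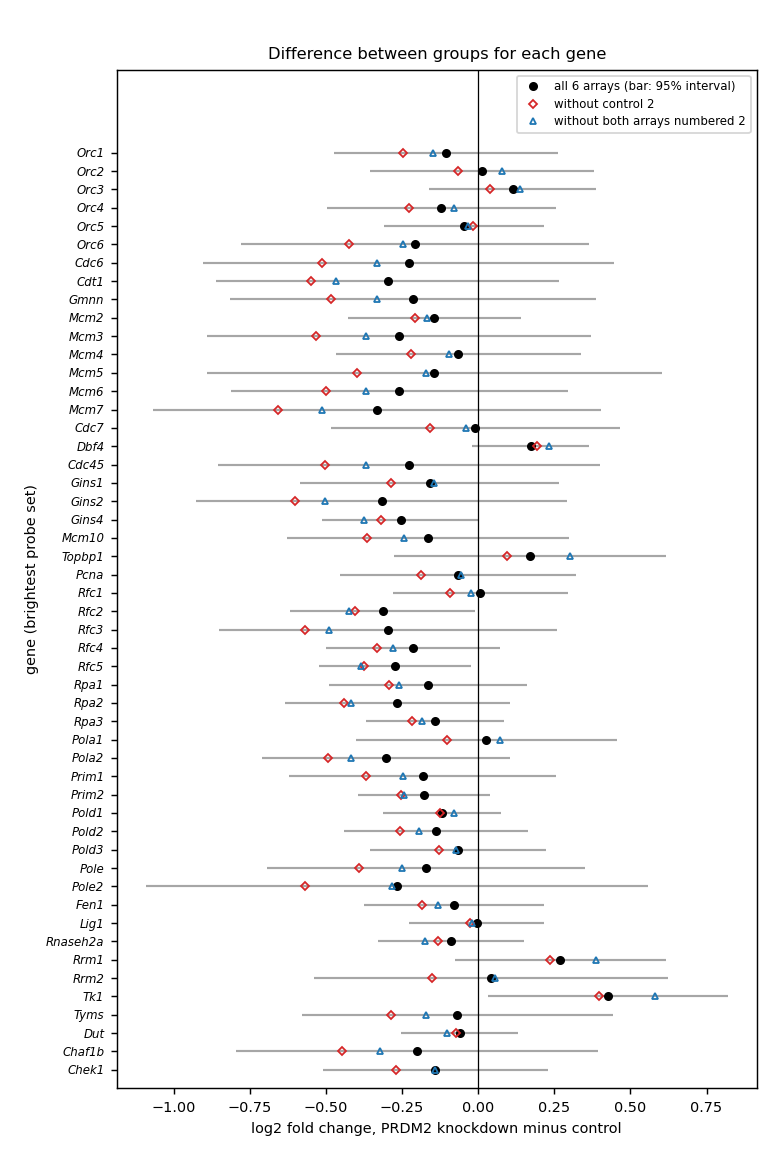
Log2 fold change of each gene, by its brightest probe set, with all 6 arrays (black, with the 95% interval of limma), without control replicate 2 (red) and without both arrays numbered 2 (blue). Most intervals span 0. The red points lie left of the black ones for most genes, such as -0.66 against -0.33 for Mcm7, and Tk1 lies furthest right at 0.43.

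Of the 38 genes with more than 1 probe set, 24 had all of them on the same side, and of the 26 with more than 1 probe set of at least 16 units, 20 did. The share among all genes of the array was not taken. Since most member probe sets were lower, these counts are no result about the members. The genes were also split by the letters in their promoters. The 15 genes with E2F letters had a median fold change of -0.14, and the 28 matched genes without them -0.13. The range among the control arrays differed more, at a median of 0.84 for genes with the letters and 0.41 for those without. Without control replicate 2 the medians were -0.40 and -0.22, and these too keep knockdown replicate 2. These are descriptions of the 43 genes and were not tested.

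Other genes of the pathway were read in the same limma fit, and 0 of them passed over all probe sets. At an unadjusted p under 0.05, against 1.81% lower and 1.13% higher of all probe sets, 2 further replication factor probe sets were lower and 1 was higher. Among further nucleotide enzymes 1 was lower, of the purine synthesis gene Paics (-0.31, SE 0.09), and 0 higher. Among the G1 and S phase regulators 0 were lower and 1 higher, of the repressor E2f6 (0.37, SE 0.13), and both genes were named after their values were seen. Among 29 further replication factors, such as fork protection and chromatin proteins, 46 of 64 probe sets were lower, with a median of -0.05. Among 15 further nucleotide enzymes 23 of 42 were lower (median -0.02), and among 28 regulators of G1 and S phase 40 of 67 (median -0.03). Ccne1, a cyclin E of S phase entry, read 7.46, 6.28 and 6.88 on the control arrays and 6.63, 6.37 and 6.98 on the knockdown arrays. Control replicate 1 was again the highest array and control replicate 2 the lowest. Ccne2 stood at -0.07 (SE 0.33) and E2f1 at -0.12 (SE 0.18). Ccnd1, cyclin D1, stood at -0.41 (SE 0.19; -0.63 without control replicate 2), and Cdkn1a, the cyclin-dependent kinase inhibitor p21, at 0.18 (SE 0.10).

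Genes of G2 and mitosis did not follow the replication genes. Of their 91 probe sets 35 were lower, with a median of 0.04. Their mean by array lay between 6.31 and 6.46, with control replicate 1 the lowest array and not the highest. Mki67, the proliferation antigen, stood at 0.30 (SE 0.16), the topoisomerase Top2a at 0.11 (SE 0.16) and Ccna2, cyclin A, at 0.06 (SE 0.08). Myotube genes, read by 46 probe sets, had means of 8.25, 8.77 and 8.64 on the control arrays and 8.88, 8.78 and 8.77 on the knockdown arrays. The array with the highest replication mean, control replicate 1, thus had the lowest myotube mean. With all 6 arrays 7 of the 46 were lower in the knockdown group (15.2%, against 50.0% of all probe sets), with a median of 0.18. Without control replicate 2, 2 of the 46 passed as higher, of Cav3 (2.68) and Tcap (0.88), against 0.264% of all probe sets. Of 7 myoblast marker probe sets 1 passed as lower, of the myoblast factor Myf5 (-1.90), against 0.262%. With all 6 arrays Cav3 stood at 1.77 (SE 0.73), Tcap at 0.62 (SE 0.21) and Myf5 at -1.32 (SE 0.46), and no probe set passed. In each, control replicate 2 (7.93, 6.05 and 5.84) read closer to the knockdown arrays than the other control arrays did. Leaving it out therefore widens these differences. All 3 genes were named after their values were seen, and the lists were chosen with earlier results of these data known. The part of myotube gene levels in the difference between the groups was not tested.

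**Figure D4:**
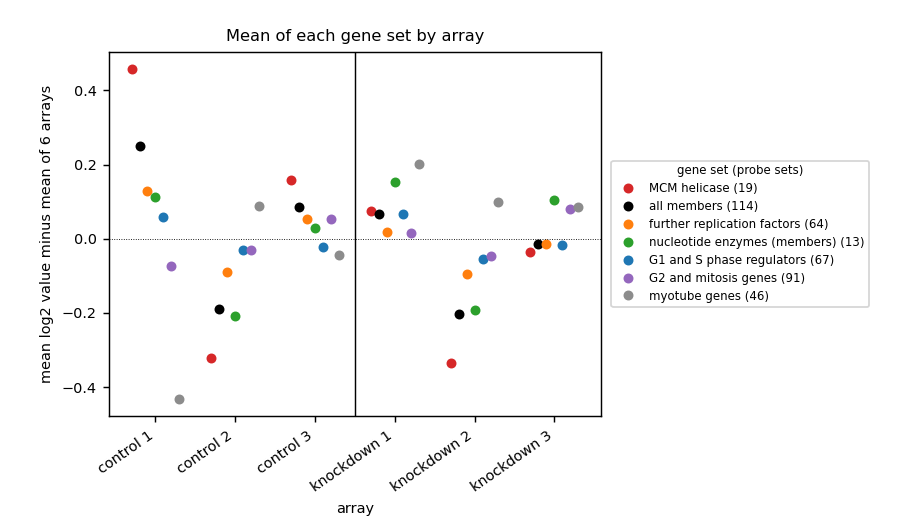
Mean log2 value of each gene set on each array, minus that set's mean over the 6 arrays, with the number of probe sets in brackets. The MCM helicase is highest on control replicate 1, where its mean before subtraction is 7.56, and lowest on knockdown replicate 2 (6.77). Myotube genes are lowest on control replicate 1, and G2 and mitosis genes stay within a narrow band.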

How the data were processed

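Biotinylated cRNA from total RNA was hybridised to 1 array per sample, per the labels' protocols, and samples were grouped by title. The authors deposited 1 linear intensity per probe set and array. The submitters' processing notes name GCOS and PLIER. No source used here gives their role or the normalization between arrays. In the table were 45101 probe sets and 0 further sample columns. Left out were 64 control probe sets and 4 probe sets of Gngt1 that held the gene's Entrez number on 1 array. Of the 45033 kept, 34941 name 1 gene, 932 several and 9160 are unnamed here. Gene symbols were checked by Entrez number against RefSeq genes of GRCm38.p6, with 34754 matched and 0 changed.

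Intensities were quantile normalized and taken as log2(intensity + 16), with no filter on dim probe sets. The 2 groups were fitted with limma 3.58.1 (R 4.3.3) by lmFit and eBayes without a block. Tests are two-sided, p-values were adjusted by Benjamini-Hochberg over all 45033 probe sets, and the threshold was 0.05. The fit code was run on simulated data with independent noise, no pairing, no array standing apart and large added changes. That run does not check the fit for changes as small as those of the members. Standard errors and 95% intervals are limma's moderated ones. Dim means under 16 units on average. The members and lists were chosen with earlier results of these data known. Genes named with all values are, in each of 11 groups by role, those of largest change and of smallest p, plus Tk1, Pcna, Mcm2, Rrm2 and Cdc6. The cell cycle genes named with values are a set list.

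Deviations from the group means correlated between arrays of the same number at 0.32, 0.60 and 0.62 over 45033 probe sets. The numbers were therefore taken as pairs in the comparison within numbers and in the fits with the replicate block. The main fit, with its standard errors, intervals and p-values, does not use the pairing. With the block the standard error was 0.13 for Mcm7 (0.31 without) and 0.11 for Gins4 (0.11 without). The labels do not state what a shared number means, so this pairing rests on the data. By the distance between arrays the pairs numbered 2 (0.05) and 3 (0.14) ranked 1 and 2 of 15. The pair numbered 1 (0.21) ranked 11, and control replicate 1 was closer to control replicate 3 (0.15). Alternatives were other scalings, offsets of 1 and 64, leaving out dim or shared probe sets, 1 value per gene, other variance settings, array weights, the replicate block and leaving out arrays.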

Additional observations from a re-analysis of the deposited data

How the results depend on the processing

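No member passed the threshold in any of the 19 alternatives, and the smallest adjusted p of a member was 0.074, with both arrays numbered 2 left out and the replicate number as a block (limma). Over the whole array 0 probe sets passed with all 6 arrays, with 1325 at an unadjusted p under 0.05, and 0 passed with the replicate block alone (3530 unadjusted). Leaving out 1 array gave 0 to 237 calls, the 237 without control replicate 2. Leaving out both arrays numbered 2 gave 57 calls, and 721 with the replicate block. The median log2 fold change of the members stayed negative throughout, from -0.22 (without control replicate 2) to -0.0062 (without control replicate 1). Under other scalings, offsets, probe set choices and variance settings it lay between -0.15 (offset of 1) and -0.05 (offset of 64). The sign of the 20 named members was kept in 368 of 376 alternative values. It turned for Chek1 with the mean of its probe sets (0.0072). Leaving out single arrays gave -0.13 to 0.0016 for Rnaseh2a, -0.45 to 0.046 for Chaf1b, -0.19 to 0.067 for Pcna and -0.15 to 0.25 for Rrm2. With 3 arrays per group, and about 43% of probe sets above 16 units on each, small changes of dim genes are not resolved.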
